A study of Sus scrofa with 60 samples.

Results

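The 10 genes described here belong to gluconeogenesis and amino acid breakdown in the liver: TDO2, TAT, HPD, SDS, GLS2, PC, PCK1, FBP1, PPARGC1A and SLC25A47. They were found by gene name among the 30359 features of the deposited count table, each name on 1 feature, and all 10 passed the filter on low counts that left 16210 genes. Some members were chosen by measured values: SDS by its fold changes in comparisons with soy-lipid pigs, and SLC25A47 by its fold changes in comparisons with pigs after bile duct ligation. Those values are given as descriptions with no test, and the other members too were chosen with earlier results of these data known. The remaining comparisons of SDS and SLC25A47 share pigs with the ones that chose them. Adjusted p given there are descriptions and not independent tests, though both genes stay in the counts of tested members.

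Liver poly-A RNA was sequenced from 60 neonatal pigs of mixed Landrace and Hampshire breeding, delivered by cesarean section shortly before term. Every pig received a jugular catheter and was randomised to bile duct ligation (BDL, cystic and common bile ducts tied) or to sham surgery (abdomen opened, liver handled, ducts left intact). Liver was collected on day 14. All pigs began on intravenous feeding. ENT pigs, 12 with sham surgery and 10 with BDL, were then moved step by step to milk replacer formula into the gut, so their route was mixed at first and wholly by gut in the later days. SLE pigs stayed on feeding by vein with the soy oil emulsion Intralipid, 10 with sham surgery and 11 with BDL. MLE pigs received SMOFlipid by vein, a mixture of soy, medium-chain, olive and fish oils, 9 with sham surgery and 8 with BDL. Intravenous feeding bypasses the gut as well as changing the lipid, so route and lipid cannot be told apart in a comparison with ENT. Total counts per library ran from 14469788 to 21374161 with a median of 17254606.

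The liver makes glucose between meals from lactate, glycerol and amino acids. Amino acids enter after enzymes strip or rearrange their nitrogen, and pyruvate carboxylase, PEPCK and fructose bisphosphatase carry the carbon back up the pathway. Glucagon and glucocorticoids raise many of these genes and insulin lowers them.

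Levels are CPM, counts divided by the normalised size of the library and put on one scale for all pigs. Hepatocyte markers were abundant in every group: 8 of them, led by ALB at a mean of 49488 CPM, summed to group means between 117197 and 174444 CPM. The 4 markers of kidney, another organ that makes glucose, summed to means of 0.293 to 0.880 CPM and none passed the filter. Per kilobase of gene length, ENT-sham medians were 424 CPM for TDO2, 338 for FBP1, 303 for PCK1, 290 for HPD, 270 for TAT and 133 for PC. The other 4 members were scarcer on that scale, at 48.3 for SLC25A47, 29.3 for GLS2, 2.33 for PPARGC1A and 1.20 for SDS.

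ENT-sham replicate 2 and ENT-BDL replicate 1 stand apart from all other libraries because they nearly match each other. Across 15841 genes their counts differed by a chi-square of 1.91 per degree of freedom, against 16.1 for the next closest of 1770 pairs and a median of 53.4 for pairs within a group. Both had 8 hepatocyte markers summing to about the same low level, 92963 and 93358 CPM, the lowest of their groups. Their 8 cholangiocyte markers summed to 422 and 415 CPM, where the other ENT-sham pigs lay between 90.3 and 219 and the ENT-BDL pigs between 250 and 425. Their 7 stellate cell and fibroblast markers summed to 4080 and 4090 CPM, the highest of either group, where the other ENT-sham pigs reached 2159 and the other ENT-BDL pigs 3727. On both sums the library labelled sham lies outside the other sham pigs, and on the cholangiocyte sum it lies within the BDL range. The cause was not tested, so ENT medians and fold changes of the members, and fold changes against ENT of the other genes always described, are given with both and, in brackets as "without both", with neither. Medians per kilobase, marker sums, counts of genes and fold changes of list genes are given with both only. One pig identifier stands on both replicate 9 and replicate 10 of SLE-sham, but their chi-square of 34.2 is above the 16.1 of the closest other pair within a group, and both were kept.

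A gene passed the test at an adjusted p under 0.05 at any fold change (edgeR quasi-likelihood, two-sided, Benjamini-Hochberg over 16210 genes). Fold changes are log2 with their standard error (SE).

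**Figure D1:**
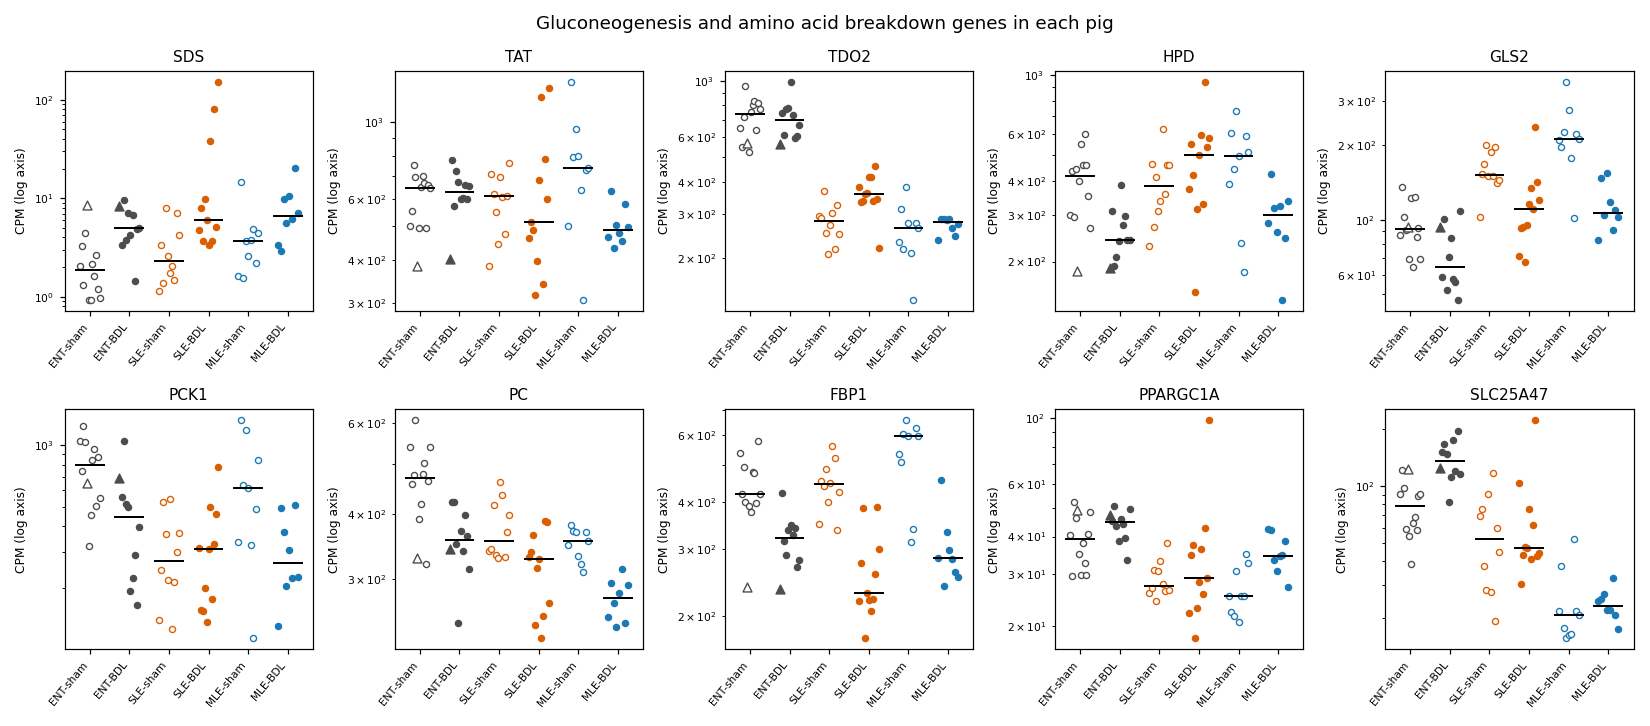
CPM of each of the 10 members in every pig, on a log axis, for the 6 groups. Open circles are sham pigs, filled circles BDL pigs, triangles the 2 nearly matching ENT libraries, and black lines group medians. TDO2 in all 22 ENT pigs lies above its level in all 38 pigs fed by vein, and 3 SLE-BDL pigs carry the highest SDS.

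TDO2, the dioxygenase that opens the indole ring of tryptophan in hepatocytes, was lower with intravenous feeding under both surgeries (gene 100301559, chromosome 8, 44708722 to 44725954 of Sscrofa11.1, the build of all positions here). In ENT-sham pigs it ran from 526 through a median of 737 to 951 CPM, and in ENT-BDL pigs from 564 through 703 to 993 (medians 753 and 737 without both). SLE-sham pigs had 207, 279 and 369 CPM as lowest, median and highest, and SLE-BDL pigs 219, 360 and 463. In MLE-sham pigs the lowest, median and highest were 137, 262 and 383 CPM, in MLE-BDL pigs 236, 279 and 287. Every ENT pig was above every pig fed by vein with the same surgery. The share of all tested genes that part groups without overlap is not given, for TDO2 or for later genes. TDO2 fell by 1.37 ± 0.12 (SE) in SLE-sham against ENT-sham, with all 10 pigs below all 12 (adjusted p 3.16e-13, −1.40 without both). The fall in MLE-sham was −1.48 ± 0.13 with all 9 pigs below (adjusted p 1.41e-13, −1.51 without both). After BDL it fell by 0.97 ± 0.12 in SLE, 11 of 11 pigs below all ENT-BDL pigs (adjusted p 1.64e-08, −1.004 without both), and by 1.39 ± 0.13 in MLE, 8 of 8 below (adjusted p 2.37e-11, −1.43 without both). In bulk tissue fewer cells of a type and less RNA per cell cannot be told apart, here or for any gene below.

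Ligation itself left TDO2 on the other side of the threshold in all 3 diets. The nearest value was in SLE, 0.38 ± 0.12 with 4 of 11 BDL pigs above all sham pigs (adjusted p 0.0510). This value passed with DESeq2 (0.38, adjusted p 0.0359), with replicate number as a block (0.38, 0.0455), without both matching ENT libraries (0.38, 0.0447), and without SLE-sham replicate 2 (0.43, 0.0331), SLE-BDL replicate 9 (0.44, 0.0244) or SLE-BDL replicate 11 (0.39, 0.0449). In the order of mean log2 levels, ENT-sham and ENT-BDL came first and did not differ beyond their spread. SLE-BDL followed after a gap beyond the spread, then, after another such gap, SLE-sham, MLE-BDL and MLE-sham, which did not differ beyond theirs.

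TAT, tyrosine aminotransferase, starts tyrosine breakdown and is a classic glucocorticoid-induced liver gene (100511756, chromosome 6, 14571311 to 14583203). Its medians lay close together, 647 CPM in ENT-sham and 628 in ENT-BDL (651 and 652 without both), 610 and 514 in the sham and BDL pigs of SLE, and 735 and 488 in those of MLE. The spread differed more than the medians: MLE-sham pigs ran from 306 to 1309 CPM and SLE-BDL pigs from 317 to 1254, while MLE-BDL pigs stayed between 431 and 634. From MLE-sham through ENT-BDL, ENT-sham, SLE-BDL and SLE-sham to MLE-BDL, no neighbours in mean log2 level differed beyond their spread. TAT fell after BDL in MLE pigs, by 0.57 ± 0.20, although no MLE-BDL pig lay below all sham pigs (adjusted p 0.0458). That call was lost in 12 of 17 fits that left out 1 pig, and without MLE-sham replicate 2, the pig with the highest TAT, the value was −0.44 (adjusted p 0.132). The other 11 were MLE-sham replicates 3, 4, 5 and 9 and MLE-BDL replicates 1, 3, 4, 5, 6, 7 and 8, with values between −0.60 and −0.53 and adjusted p from 0.0507 to 0.0828. It was also lost with no filter on low counts (−0.59, adjusted p 0.0569) and with replicate number as a block (−0.50, 0.0760).

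HPD, the dioxygenase that acts on the keto acid TAT makes from tyrosine, was lower after BDL in ENT and MLE pigs (397443, chromosome 14, 30845608 to 30857658). Lowest, median and highest were 184, 418 and 599 CPM in ENT-sham and 190, 240 and 386 in ENT-BDL (medians 436 and 240 without both). SLE-sham pigs had 228, 386 and 628 CPM and SLE-BDL pigs 154, 500 and 945. In MLE-sham the 3 values were 183, 496 and 736 CPM, and in MLE-BDL 143, 298 and 427. All groups overlapped, and no neighbours in the order SLE-BDL, MLE-sham, SLE-sham, ENT-sham, MLE-BDL, ENT-BDL differed beyond their spread. HPD fell by 0.62 ± 0.21 after BDL in ENT, with none of 10 pigs below all sham pigs (adjusted p 0.0328, −0.65 without both, then with 5 of 9 pigs below). The MLE fall was −0.68 ± 0.24, with 1 of 8 pigs below all sham pigs (adjusted p 0.0457). In SLE-BDL pigs HPD was higher than in ENT-BDL pigs by 0.90 ± 0.22, with 7 of 11 pigs above all 10 (adjusted p 0.00168, 0.86 without both).

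Both HPD falls lie close to the threshold, and their size moved little when single pigs were left out. The ENT call was lost without any 1 of ENT-sham replicates 4, 5 and 6 or ENT-BDL replicates 1, 2, 3 and 4, where values ran from −0.60 to −0.54 and adjusted p from 0.0521 to 0.0718. It was lost too with no filter on low counts (−0.62, adjusted p 0.0534). The MLE call was lost without any 1 of MLE-sham replicates 2, 3, 4, 5, 8 and 9 or MLE-BDL replicates 1, 3, 4, 5, 6 and 7, where HPD ran from −0.70 to −0.58 and adjusted p from 0.0514 to 0.109. It was also lost with no filter (−0.69, adjusted p 0.0635), with replicate number as a block (−0.65, 0.0679) and with only the MLE groups in the fit (−0.68, 0.0598). The response of HPD to BDL differed between SLE and ENT by 0.91 ± 0.30 without passing (adjusted p 0.0891, 0.95 and 0.0543 without both), but passed without ENT-sham replicate 2 (0.99, 0.0360) or SLE-BDL replicate 2 (1.01, 0.0390). Between MLE-BDL and SLE-BDL pigs HPD differed by −0.72 ± 0.23 (adjusted p 0.115), and by −0.82 without SLE-BDL replicate 2 (0.0405).

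SDS, serine dehydratase, turns serine into pyruvate and ammonia (100155595, chromosome 14, 38503922 to 38513908). Lowest, median and highest were 0.927, 1.85 and 8.50 CPM in ENT-sham and 1.43, 4.96 and 9.55 in ENT-BDL (medians 1.63 and 4.88 without both). The highest ENT-sham value belongs to one of the matching libraries, and without it the ENT-sham pigs end at 4.40. SLE-sham pigs had 1.15, 2.33 and 7.90 CPM, MLE-sham pigs 1.54, 3.69 and 14.5, and MLE-BDL pigs 2.89, 6.58 and 20.3. SLE-BDL pigs ran from 3.33 through 6.04 to 152 CPM, so that their median sits within the MLE-BDL range while their mean is 28.7 ± 47.3 (SD, n = 11).

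The SLE-BDL mean rests on 3 pigs. Replicate 9 had 152 CPM (2496 counts), replicate 7 had 80.8 (1211 counts) and replicate 5 had 38.1 (561 counts), while the other 8 pigs lay between 3.33 and 9.77 CPM. Against SLE-sham the difference was 3.11 ± 0.59, with 5 of 11 pigs above all sham pigs, and 2.30 without replicate 9, 2.82 without replicate 7 and 3.06 without replicate 5. Against ENT-BDL it was 2.39 ± 0.56 (2.47 without both), and MLE-BDL minus SLE-BDL was −1.80 ± 0.59. These are the values that chose SDS, and they have no test.

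The comparisons of SDS without SLE pigs did not pass in the main fit. Values of these ENT and MLE pigs also entered the fold changes that chose SDS. The adjusted p here are therefore descriptions and not independent tests. After BDL in ENT pigs SDS differed by 1.11 ± 0.55, with 1 of 10 pigs above all sham pigs (adjusted p 0.166, 1.40 and 0.0804 without both, then with 5 of 9 pigs above). With only the ENT groups in the fit it differed by 1.11 (adjusted p 0.0432). The difference in MLE pigs was 0.91 ± 0.61, with 1 of 8 pigs above (adjusted p 0.340). Between MLE-sham and ENT-sham it was 0.79 ± 0.58 (adjusted p 0.355, 1.16 without both), and between MLE-BDL and ENT-BDL 0.59 ± 0.58 (adjusted p 0.539, 0.67 without both). Each BDL group stood above its own sham group in mean log2 level, in the order SLE-BDL, MLE-BDL, ENT-BDL, MLE-sham, SLE-sham, ENT-sham, with no neighbours differing beyond their spread.

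The 3 SLE-BDL pigs with the most SDS did not share one pattern across the other members, though they were also the 3 highest of their group in G6PC, the last enzyme of glucose output (383, 167 and 273 CPM for replicates 9, 7 and 5). Replicate 9 had the highest TAT of its group (1254 CPM), the highest PCK1 (785) and the highest PPARGC1A (98.9), but the lowest TDO2 (219). Replicate 7 had the highest HPD (945 CPM), GLS2 (236), TDO2 (463), PC (388) and SLC25A47 (223). Replicate 5 was next to highest in TAT (1186 CPM), PCK1 (497), TDO2 (418) and HPD (595) and had the lowest PC (230). Their hepatocyte markers summed to 115589, 167967 and 162961 CPM in the order 9, 7 and 5, within the group's range of 107140 to 167967, and the part of cell content in their SDS was not tested.

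Over all 60 pigs, after group means were subtracted, the genes whose log2 CPM followed SDS most closely were SLC25A51 (Spearman rho 0.63), TGM3 (0.62), TNFRSF21 (0.59), MCL1 (0.59) and SLC2A3 (0.58), out of 16210. Among the members SDS was nearest to PCK1 by Spearman rho (0.37, 0.35 without both). After PCK1 the order depends on the matching libraries: PPARGC1A stood at 0.23, GLS2 and TAT at 0.18 and HPD at 0.15 with them, and without both TAT stood at 0.26, HPD at 0.22, PPARGC1A at 0.20 and GLS2 at 0.16. The rhos of FBP1 (−0.24, −0.18 without both) and PC (−0.22, −0.18 without both) were negative but small. By Pearson r, with group means subtracted, PPARGC1A (0.45) stood nearer to SDS than PCK1 (0.39). These are descriptions over pigs that share groups and depth.

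GLS2, the liver glutaminase that releases ammonia and glutamate from glutamine, was the member that rose with intravenous feeding under both surgeries (100738224, chromosome 5, 21806405 to 21820001, overlapping RBMS2 and SPRYD4 on the other strand). ENT-sham pigs had a lowest, median and highest of 64.6, 91.8 and 135 CPM and ENT-BDL pigs 47.4, 64.6 and 108 (medians 91.1 and 58.6 without both). SLE-sham pigs had 102, 152 and 200 CPM and SLE-BDL pigs 67.6, 111 and 236. In MLE-sham the values were 102, 211 and 360 CPM, and in MLE-BDL 83.0, 107 and 155. Sham pigs fed by vein were nearly all above the ENT-sham range. GLS2 rose by 0.75 ± 0.17 in SLE-sham, 9 of 10 pigs above all 12 ENT-sham pigs (adjusted p 0.000434, 0.75 without both), and by 1.22 ± 0.17 in MLE-sham, 8 of 9 above (adjusted p 3.26e-07, 1.21 without both). After BDL the rise over ENT was 0.67 ± 0.17 in SLE with 6 of 11 pigs above (adjusted p 0.00383, 0.72 without both) and 0.64 ± 0.19 in MLE with 4 of 8 above (adjusted p 0.0120, 0.68 without both). The last of these was lost with the number in the pig identifier as a block (0.53, adjusted p 0.0987).

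Ligation lowered GLS2 in MLE pigs, by 0.95 ± 0.19, with 2 of 8 pigs below all sham pigs (adjusted p 0.000371). The differences in ENT (−0.38 ± 0.17, adjusted p 0.121, −0.43 without both, 5 of 10 pigs below) and in SLE (−0.46 ± 0.17, adjusted p 0.117, 5 of 11 below) did not pass. Without SLE-BDL replicate 7, the pig with 236 CPM, the SLE value was −0.62 (adjusted p 0.0187). The response in MLE is not shown to differ from that in ENT (−0.58 ± 0.26, adjusted p 0.499, −0.53 without both) or in SLE (−0.50 ± 0.26, adjusted p 0.539). The order was MLE-sham, SLE-sham, MLE-BDL, SLE-BDL, ENT-sham, ENT-BDL, and of these neighbours SLE-sham and MLE-BDL differed beyond their spread.

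PC, pyruvate carboxylase, makes the oxaloacetate that gluconeogenesis from lactate and alanine starts with (397630, chromosome 2, 5566608 to 5587797, overlapping LRFN4 on the other strand). Its groups were narrow, with SDs of log2 CPM between 0.11 and 0.28. ENT-sham pigs ran from 320 through 470 to 609 CPM and ENT-BDL pigs from 246 through 357 to 424 (medians 476 and 363 without both). SLE-sham pigs had 330, 356 and 461 CPM and SLE-BDL pigs 230, 327 and 388. MLE-sham pigs had 309, 355 and 382 CPM and MLE-BDL pigs 243, 276 and 314. Intravenous feeding and ligation each went with lower PC, in overlapping groups.

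PC fell after BDL by 0.37 ± 0.09 in ENT, 2 of 10 pigs below all sham pigs (adjusted p 0.00391, −0.40 without both), and by 0.36 ± 0.11 in MLE, 7 of 8 below (adjusted p 0.0160). In SLE the difference of −0.26 ± 0.10, with 6 of 11 pigs below, did not pass (adjusted p 0.102). Among sham pigs PC fell against ENT by 0.29 ± 0.09 in SLE, with no pig below all ENT-sham pigs (adjusted p 0.0150, −0.33 without both), a call lost with replicate number as a block (−0.23, 0.0769). The MLE-sham fall was −0.39 ± 0.10 with 1 of 9 pigs below (adjusted p 0.00208, −0.43 without both). After BDL it was −0.38 ± 0.10 in MLE with 1 of 8 below (adjusted p 0.00709, −0.39 without both), while SLE differed by −0.19 ± 0.10 (adjusted p 0.160, −0.20 without both). No neighbours in the order ENT-sham, SLE-sham, ENT-BDL, MLE-sham, SLE-BDL, MLE-BDL differed beyond their spread.

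PCK1, the cytosolic PEPCK that commits oxaloacetate to glucose, varied widely between pigs of a group (100144531, chromosome 17, 57930507 to 57936523). Lowest, median and highest were 321, 799 and 1242 CPM in ENT-sham and 166, 447 and 1046 in ENT-BDL (medians 848 and 398 without both). SLE-sham pigs had 127, 273 and 544 CPM and SLE-BDL pigs 136, 310 and 785. MLE-sham pigs spanned 114 to 1326 CPM around 615, and MLE-BDL pigs 131 to 512 around 266. Within-group SDs of log2 CPM reached 1.09, and no neighbours in the order ENT-sham, MLE-sham, ENT-BDL, MLE-BDL, SLE-BDL, SLE-sham differed beyond their spread.

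PCK1 fell by 1.33 ± 0.34 in SLE-sham against ENT-sham, with 6 of 10 pigs below all 12 (adjusted p 0.00183, −1.36 without both). MLE-sham did not pass against ENT-sham, and its difference from SLE-sham, 1.09 ± 0.35 with 5 of 9 pigs above, did not pass either (adjusted p 0.130). After BDL PCK1 fell in MLE pigs by 1.07 ± 0.38, with none of 8 pigs below all sham pigs (adjusted p 0.0445). This call was lost without any 1 of MLE-sham replicates 2, 3, 4, 5 and 9 or MLE-BDL replicates 1, 3, 4, 5, 6 and 8, where PCK1 ran from −1.13 to −0.88 and adjusted p from 0.0530 to 0.109. It was lost as well with no filter on low counts (−1.09, adjusted p 0.0632), with replicate number as a block (−0.91, 0.106), with the identifier number as a block (−1.06, 0.0553) and with only the MLE groups in the fit (−1.08, 0.0729). In ENT the difference after BDL was −0.75 ± 0.33, 4 of 10 pigs below (adjusted p 0.111, −0.86 and 0.0740 without both), and −0.97 without ENT-BDL replicate 2 (adjusted p 0.0390). The responses of MLE and SLE differed by −1.14 ± 0.50 without passing (adjusted p 0.437).

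Across the 60 pigs PCK1 with group means subtracted was followed most closely by BTG3 (Spearman rho 0.77), ANKRD13C (0.71), SIK1 (0.64), ZYG11B (0.63) and HMCN2 (0.62). SIK1 is a kinase induced by cAMP signalling. Of the members, TAT came nearest at a rho of 0.59, rank 12 of 16210 genes, and GLS2 next at 0.48. In MLE-sham replicate 2 both PCK1 and TAT were the highest of the group (1326 and 1309 CPM), and in replicate 7 both were the lowest (114 and 306).

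FBP1, fructose bisphosphatase of liver, was the member that fell after BDL in all 3 diets (397038, chromosome 10, 27588609 to 27622225). ENT-sham pigs had a lowest, median and highest of 238, 420 and 578 CPM and ENT-BDL pigs 236, 321 and 423 (medians 420 and 328 without both). The lowest value in each is a matching library, and without both the ranges start at 376 and 270. SLE-sham pigs had 338, 445 and 563 CPM and SLE-BDL pigs 175, 231 and 387. MLE-sham pigs had 313, 597 and 658 CPM and MLE-BDL pigs 240, 284 and 456. FBP1 fell by 0.45 ± 0.13 in ENT, 1 of 10 pigs below all sham pigs (adjusted p 0.0111, −0.48 without both, then with 8 of 9 pigs below). In SLE it fell by 0.76 ± 0.13, 9 of 11 pigs below (adjusted p 0.000402), and in MLE by 0.82 ± 0.15, 6 of 8 below (adjusted p 9.22e-05). The diets' responses did not pass as different, at −0.30 ± 0.19 for SLE against ENT (adjusted p 0.475, −0.28 without both) and −0.36 ± 0.20 for MLE against ENT (adjusted p 0.608, −0.34 without both). No diet comparison of FBP1 passed, the nearest among sham pigs being MLE against ENT at 0.29 ± 0.13 (adjusted p 0.114, 0.23 without both), which passed without MLE-sham replicate 6 (0.36, 0.0448). SLE-BDL against ENT-BDL, −0.27 ± 0.13 (adjusted p 0.144, −0.31 without both), passed with the identifier number as a block (−0.36, 0.0286). The order was MLE-sham, SLE-sham, ENT-sham, ENT-BDL, MLE-BDL, SLE-BDL, with a gap beyond the spread between ENT-sham and ENT-BDL.

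PPARGC1A, a coactivator that raises gluconeogenic and mitochondrial genes, was lower in sham pigs fed by vein (397013, chromosome 8, 17841844 to 18527953, overlapping LOC110261971 and LOC110261972 on the other strand). ENT-sham pigs had 29.6, 39.2 and 52.4 CPM as lowest, median and highest and ENT-BDL pigs 33.4, 44.6 and 50.6 (medians 37.9 and 44.2 without both). SLE-sham pigs had 24.3, 27.3 and 38.1 CPM and SLE-BDL pigs 18.2, 29.1 and 98.9. MLE-sham pigs had 20.5, 25.2 and 34.9 CPM and MLE-BDL pigs 27.0, 34.5 and 42.5. A single pig, SLE-BDL replicate 9, lay far above every other at 98.9, and the next in its group had 42.6. PPARGC1A fell by 0.57 ± 0.16 in MLE-sham against ENT-sham, 6 of 9 pigs below all 12 (adjusted p 0.00839, −0.55 without both). The SLE-sham fall was −0.44 ± 0.16, 6 of 10 below (adjusted p 0.0317). That call was lost without both matching libraries (−0.41, adjusted p 0.0504), with replicate number as a block (−0.36, 0.0693), and without any 1 of ENT-sham replicates 9, 11 and 12 or SLE-sham replicates 1 and 3 (−0.42 to −0.40, adjusted p 0.0508 to 0.0599). After BDL, SLE minus ENT was −0.28 ± 0.16, 6 of 11 pigs below all 10 (adjusted p 0.220, −0.27 without both), and −0.56 without SLE-BDL replicate 9 (adjusted p 0.000536). MLE minus ENT after BDL, −0.31 ± 0.17 (adjusted p 0.242, −0.30 without both), passed with the identifier number as a block (−0.54, 0.0457) and with only those groups in the fit (−0.32, 0.0304). The BDL difference in MLE, 0.42 ± 0.18 with 3 of 8 pigs above (adjusted p 0.107), passed with replicate number as a block (0.50, 0.0332) and with only the MLE groups (0.41, 0.0130). From ENT-BDL through ENT-sham, MLE-BDL, SLE-BDL and SLE-sham to MLE-sham, no neighbours differed beyond their spread.

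SLC25A47, a carrier of the inner mitochondrial membrane found mainly in liver, was lowest in MLE pigs (100515556, chromosome 7, 121204213 to 121210376). ENT-sham pigs ran from 38.7 through 78.4 to 123 CPM and ENT-BDL pigs from 82.5 through 135 to 194 (medians 68.5 and 147 without both). SLE-sham pigs had 19.3, 52.5 and 117 CPM and SLE-BDL pigs 30.3, 47.0 and 223. MLE-sham pigs had 15.7, 20.8 and 52.5 CPM and MLE-BDL pigs 17.5, 23.3 and 32.8. The MLE-BDL pigs all lay below the ENT-BDL pigs, while the SLE groups overlapped both other diets. Sham values also entered the BDL comparisons that chose SLC25A47, so the adjusted p here are descriptions and not independent tests. Among sham pigs SLC25A47 was lower in MLE than in ENT by 1.70 ± 0.29, 8 of 9 pigs below all 12 (adjusted p 1.33e-05, −1.63 without both). It was lower in MLE than in SLE by 1.22 ± 0.30, 4 of 9 below all 10 (adjusted p 0.0245). The second call was lost without any 1 of SLE-sham replicates 4 and 6 or MLE-sham replicates 3, 4, 5 and 6 (−1.16 to −1.03, adjusted p 0.0536 to 0.0800), with the identifier number as a block (−1.08, 0.0707) and with only the compared groups in the fit (−1.22, 0.0762). SLE-sham minus ENT-sham was −0.48 ± 0.27 (adjusted p 0.187, −0.41 without both).

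The comparisons with BDL pigs chose SLC25A47 and stand without a test. BDL minus sham was 0.80 ± 0.27 in ENT with 6 of 10 pigs above (0.89 without both) and 0.28 ± 0.27 in SLE with 1 of 11 above. In MLE it was −0.03 ± 0.31 with 0 of 8 above. After BDL, SLE minus ENT was −1.01 ± 0.27 (−1.02 without both), MLE minus ENT −2.53 ± 0.32 (−2.55 without both) and MLE minus SLE −1.53 ± 0.31. The order of mean log2 levels was ENT-BDL, ENT-sham, SLE-BDL, SLE-sham, MLE-BDL, MLE-sham. The genes that followed it most closely over 60 pigs, group means subtracted, were SLC35C1 (Spearman rho 0.59), MOCOS (0.57), HEMK1 (0.56), ANKRD13B (0.53) and RNF223 (0.53).

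What blocked bile flow changed within a diet can now be read across the members and against the rest of the transcriptome. In ENT pigs HPD, PC and FBP1 fell and no member rose, 3 of 9 tested, where 8.53% of all tested genes were lower and 8.89% higher after BDL. In SLE pigs FBP1 alone of 8 tested members fell, where 1.57% of genes were lower and 2.97% higher. In MLE pigs TAT, HPD, GLS2, PCK1, PC and FBP1 fell and none of 9 rose, where 6.58% were lower and 7.85% higher, although the fit with no low-count filter left 3. With replicate number as a block TAT, HPD and PCK1 were lost and PPARGC1A rose (0.50, adjusted p 0.0332), and with only the MLE groups in the fit HPD and PCK1 were lost and PPARGC1A rose (0.41, 0.0130). With the identifier number as a block PCK1 was lost. The count also went to 3 without any 1 of MLE-sham replicates 2, 3, 4, 5 and 9 or MLE-BDL replicates 1, 3, 4, 5 and 6, and to 4 without MLE-BDL replicate 7 or 8. The median difference of the tested members was −0.37 in ENT and −0.57 in MLE, against medians of 0.01 and 0.00 over all tested genes, and 0.09 in SLE against 0.01. Of the 8 hepatocyte markers 4 fell and 1 rose in ENT and 6 fell in MLE. Their mean sums went from 156357 to 128536 CPM in ENT, 151287 to 141383 in SLE and 174444 to 117197 in MLE. Of 8 cholangiocyte markers 5, 1 and 6 rose in ENT, SLE and MLE. Of the 7 stellate cell and fibroblast markers 2, 1 and 4 rose. The 1 rise in SLE, ACTA2, was lost with no low-count filter and with replicate or identifier number as a block. It was lost too with only the SLE groups in the fit. Of 6 macrophage markers, led by CD14, 1 rose in each diet and 1 fell in ENT and MLE, with mean sums from 1104 to 869 CPM in ENT and 976 to 743 in MLE. Of 4 neutrophil markers, led by CSF3R, 1 rose in ENT and in MLE. In ENT 1 of 5 endothelial markers fell, and in MLE 2 of 6 erythroid markers fell. The endothelial call, LYVE1, was lost with no low-count filter, with replicate number as a block and with only the ENT groups in the fit. The erythroid call of HBB in MLE was lost with no low-count filter. Mean cholangiocyte sums, with CLDN4 the most abundant, went from 172 to 328 CPM in ENT, 323 to 375 in SLE and 225 to 367 in MLE, and none of these markers was at 0. Stellate sums, with COL3A1 the most abundant, went from 1716 to 2873, 2253 to 3321 and 1893 to 4015 CPM. The part of cell content in the members' falls was not tested.

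Other genes of the same pathways were counted after BDL too, with rises among them in every diet and no test of a list as a whole. Of 20 other genes of gluconeogenesis and shared glycolysis, 6 fell in ENT, among them the mitochondrial pyruvate carrier subunit MPC2 (−0.45 ± 0.11) and GPD1 (−0.64 ± 0.17), while in SLE 2 rose and 1 fell and in MLE 2 rose and 4 fell. Of 18 genes of glucose use, 1 rose and 3 fell in ENT, 1 rose in SLE, and 4 rose and 2 fell in MLE, where the hexokinase HK2 rose by 3.19 ± 0.56. Aromatic amino acid breakdown, with 14 of 15 genes past the filter, had 1 rise in every diet, that of ACMSD, an enzyme of tryptophan's kynurenine branch (1.32 ± 0.25 in ENT, 1.11 ± 0.27 in SLE and 2.20 ± 0.31 in MLE), beside 4, 2 and 5 falls. In SLE the ACMSD call was lost with only the SLE groups in the fit. Of 19 genes of serine, glycine, threonine and sulfur amino acid breakdown 8 fell and 2 rose in ENT, with CBS at −0.78 ± 0.16 and SHMT2 at −0.50 ± 0.11. In SLE 1 of these genes rose and 1 fell, and in MLE 6 fell, with MAT1A at −0.73 ± 0.16.

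Alanine, glutamine, histidine, proline and lysine breakdown (13 of 14 genes measured, PRODH absent) had 2 falls and 1 rise in ENT and 5 falls in MLE, among them the alanine aminotransferases GPT2 (−0.81 ± 0.19) and GPT (−0.61 ± 0.16). In SLE edgeR called 0 of the 13, with 4 at an unadjusted p under 0.05 and 1 by DESeq2. The hormone and transcription list (22 of 23 measured, NR4A1 absent) had 8 falls in ENT, led by CEBPA (−0.76 ± 0.15), and 7 in MLE, led by HSD11B1, which regenerates active glucocorticoid (−1.17 ± 0.24), and GCGR, the glucagon receptor (−0.59 ± 0.13). In SLE 2 genes of that list rose and 1 fell. Mitochondrial carriers (11 of 12 measured, SLC25A18 absent) fell 5, 4 and 3 times in ENT, SLE and MLE with no rise, the citrate carrier SLC25A1 by 0.37 ± 0.09 in ENT and 0.41 ± 0.09 in SLE. Of 12 amino acid transporters 1 rose and 1 fell in ENT, 1 fell in SLE, and 2 rose and 1 fell in MLE, and SLC1A4 fell in each diet (−0.74 ± 0.15, −0.57 ± 0.15 and −0.64 ± 0.17), in SLE not with only those groups in the fit. Of 8 pericentral hepatocyte genes 4 fell in ENT and 2 in MLE, CYP2E1 by 1.86 ± 0.53 and 2.59 ± 0.63, while edgeR called 0 in SLE, with 3 at an unadjusted p under 0.05 and 1 by DESeq2. The few list calls after BDL in SLE depend on the fit: those of LDHA, FBP2, ENO1, PKM, ACMSD, PCBD1, AGXT, CDO1, SIK1 and SLC1A4 were lost with only the SLE groups, and those of FBP2, ENO1, AGXT, CDO1, SIK1, SLC25A42 and SLC25A45 with the identifier number as a block. ENO1, PCBD1 and SLC25A45 were lost with no low-count filter, and SIK1 with replicate number as a block.

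Members differed between sham pigs fed by vein and ENT-sham pigs in both directions. In SLE-sham against ENT-sham TDO2, PCK1, PC and PPARGC1A fell and GLS2 rose, 5 of 9 tested, where 13.6% of all genes were lower and 13.9% higher. PC and PPARGC1A were lost there with replicate number as a block, and PPARGC1A without both matching libraries. In MLE-sham TDO2, PC, PPARGC1A and SLC25A47 fell and GLS2 rose, 5 of 10, where 10.4% were lower and 10.7% higher. Both comparisons use the same ENT-sham pigs. The 9 and the 10 include SLC25A47, and the 10 also SDS, whose values in these pigs entered the fold changes that chose them. SLC25A47 is 1 of the 5 in MLE-sham. Of the 8 hepatocyte markers 1 was higher and 3 lower in SLE-sham, and 2 were higher and 1 lower in MLE-sham. Macrophage markers gave 2 higher of 6 in SLE-sham and 1 lower in MLE-sham, and 1 of 4 neutrophil markers was higher in SLE-sham. Of the 8 cholangiocyte markers 3 were higher in SLE-sham and 2 in MLE-sham. Of 6 erythroid markers, led by HBB, 2 were lower in each. Their mean sums were 1210 CPM in ENT-sham, 462 in SLE-sham and 564 in MLE-sham. With the identifier number as a block the marker calls of TTR, KRT19, VSIG4, HBB and AHSP in MLE-sham were lost. The SLE-sham call of ALAS2 was lost there too. KRT19 and AHSP in MLE-sham and MARCO in SLE-sham were lost with no low-count filter and with replicate number as a block. The part of all these markers in the members' differences was not tested.

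In the same feeding contrast 3 of the 5 other genes always described fell in both diets. G6PC, the phosphatase that frees glucose in the last step of the pathway (100134959, chromosome 12, 19965885 to 19975783), had medians of 891 CPM in ENT-sham, 110 in SLE-sham and 232 in MLE-sham. It fell by 2.80 ± 0.30 in SLE-sham, 10 of 10 pigs below all 12 (adjusted p 8.62e-11, −2.86 without both), and by 1.80 ± 0.29 in MLE-sham, 8 of 9 below (adjusted p 5.29e-06, −1.86 without both). IGFBP1, a secreted protein whose gene insulin represses (397270, chromosome 18, 50018487 to 50022799), had medians of 606, 33.5 and 29.7 CPM. All SLE-sham and MLE-sham pigs were below all ENT-sham pigs, by −4.17 ± 0.49 (adjusted p 2.37e-09, −4.21 without both) and −3.87 ± 0.51 (adjusted p 7.06e-08, −3.91 without both). PDK4, a kinase that keeps pyruvate from oxidation (100286778, chromosome 9, 75246956 to 75260134), fell by 0.75 ± 0.22, 1 of 10 pigs below all (adjusted p 0.00685, −0.75 without both), and by 1.39 ± 0.23, 7 of 9 below (adjusted p 7.75e-06, −1.39 without both). PCK2, the mitochondrial PEPCK (403165, chromosome 7, 75187195 to 75197613), rose in MLE-sham by 0.43 ± 0.13, 7 of 9 pigs above all 12 (adjusted p 0.0121, 0.39 without both), but not with the identifier number as a block (0.23, 0.276). HAL, which starts histidine breakdown (100154617, chromosome 5, 87522483 to 87547489), did not pass, at −0.60 ± 0.24 in SLE-sham with 7 of 10 pigs below (adjusted p 0.0544, −0.59 without both). HAL passed there with DESeq2 (−0.61, adjusted p 0.0332) and without any 1 of ENT-sham replicates 3, 5 and 8 or SLE-sham replicates 2, 3 and 5 (−0.71 to −0.63, 0.0256 to 0.0497).

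**Figure D2:**
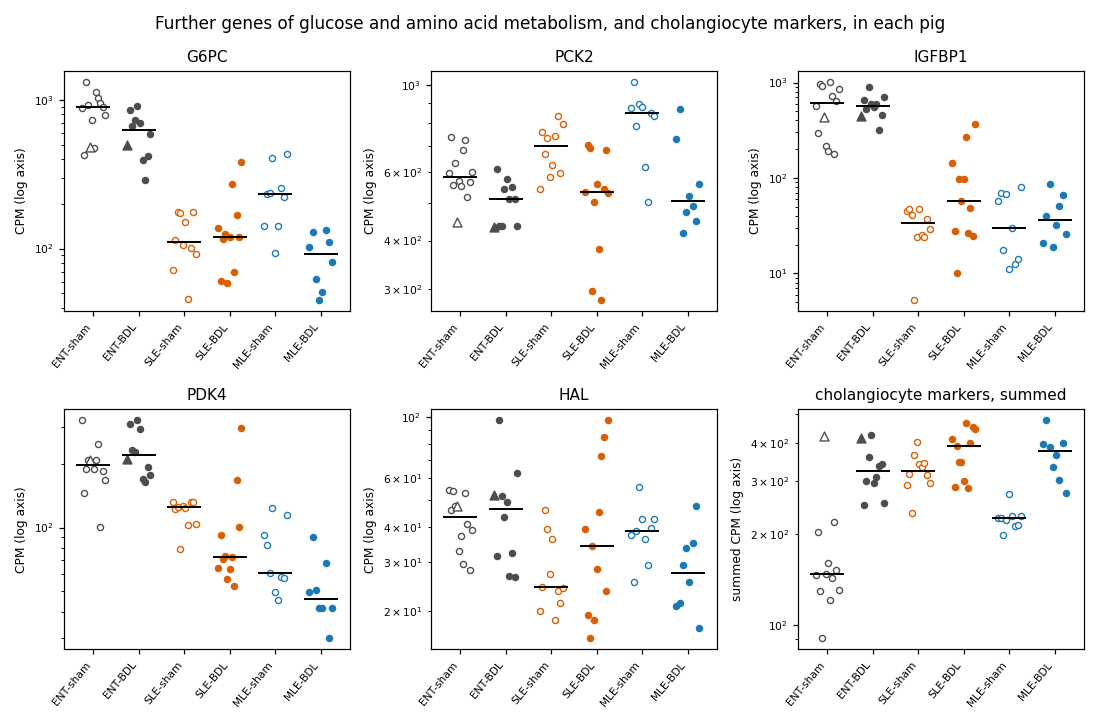
CPM in every pig, on a log axis, of G6PC, PCK2, IGFBP1, PDK4 and HAL, and of the sum of 8 cholangiocyte markers, for the 6 groups. Open circles are sham pigs, filled circles BDL pigs, triangles the 2 nearly matching ENT libraries, and black lines medians. IGFBP1 medians of 606 and 573 CPM in the ENT groups stand over 33.5, 57.2, 29.7 and 36.1 in the groups fed by vein.

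The lists of other genes were counted in sham pigs against ENT-sham, with no test of a list as a whole. Other genes of gluconeogenesis and shared glycolysis gave 3 rises and 5 falls of 20 in SLE and in MLE, with SLC37A4, which carries glucose phosphate to G6PC, at −1.03 ± 0.12 and −0.82 ± 0.12. Glucose use gave 5 rises and 7 falls of 18 in SLE and 1 and 7 in MLE, among them the glycogen synthase GYS2 (−2.00 ± 0.21 and −1.46 ± 0.21) and the transporter SLC2A2 (−1.02 ± 0.12 and −0.86 ± 0.13). Aromatic amino acid breakdown gave 1 rise and 7 falls of 14 in SLE and 1 and 5 in MLE, led by KMO, an oxygenase further along the path TDO2 opens (−0.92 ± 0.11 in MLE). The serine, glycine, threonine and sulfur list gave 4 rises and 8 falls of 19 in SLE, such as SARDH (−0.86 ± 0.16), and 3 and 1 in MLE, such as TDH (0.71 ± 0.16). Alanine, glutamine, histidine, proline and lysine breakdown gave 1 rise and 2 falls of 13 in SLE and 3 and 2 in MLE, with UROC1 at −0.83 ± 0.15 and −0.79 ± 0.16. The hormone and transcription list gave 1 rise and 5 falls of 22 and 1 and 4, with IRS2, an adaptor of the insulin receptor, at −0.70 ± 0.15 and −0.81 ± 0.15. Mitochondrial carriers gave 4 rises and 2 falls of 11 and 4 and 0, with SLC25A1 at 0.50 ± 0.09 and 0.59 ± 0.09. Amino acid uptake gave 2 rises and 1 fall of 12 and 3 and 0, with SLC1A1 at 0.56 ± 0.16 and 0.77 ± 0.16. Pericentral genes fell in 6 of 8 and 7 of 8, CYP1A2 by 2.59 ± 0.43 and 2.66 ± 0.45.

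The intravenous diets were also compared with ENT among BDL pigs, where SDS has no test in SLE and SLC25A47 none in either diet. In SLE-BDL against ENT-BDL HPD and GLS2 rose and TDO2 fell, 3 of 8 tested, where 10.4% of genes were higher and 9.17% lower. In MLE-BDL GLS2 rose and TDO2 and PC fell, 3 of 9, where 8.53% were higher and 8.27% lower. These comparisons share the ENT-BDL pigs. G6PC medians were 626 CPM in ENT-BDL, 120 in SLE-BDL and 91.9 in MLE-BDL, and G6PC fell by 2.03 ± 0.28 in SLE, 10 of 11 pigs below all ENT-BDL pigs (adjusted p 3.34e-07, −2.06 without both), and by 2.76 ± 0.33 in MLE, 8 of 8 below (adjusted p 8.57e-09, −2.79 without both). IGFBP1 fell by 2.43 ± 0.45, 10 of 11 below (adjusted p 5.90e-05, −2.47 without both), and in MLE the difference was −3.76 ± 0.54, 8 of 8 below (adjusted p 8.01e-07, −3.80 without both). PDK4 fell by 1.19 ± 0.22, 9 of 11 below (adjusted p 7.14e-05, −1.20 without both), and in MLE the difference was −2.16 ± 0.25, 8 of 8 below (adjusted p 7.45e-09, −2.17 without both). HAL in MLE differed by −0.72 ± 0.27, 4 of 8 below (adjusted p 0.0548, −0.71 without both), and passed with DESeq2 (−0.73, 0.0304) and without any 1 of ENT-BDL replicates 6, 7, 8 and 10 or MLE-BDL replicate 7 (−0.86 to −0.77, 0.0275 to 0.0455). Of the 8 hepatocyte markers 1 was higher and 1 lower in SLE-BDL and 1 was lower in MLE-BDL, and 1 and 2 of 8 cholangiocyte markers were higher. Of 6 lymphocyte markers past the filter 1 was lower in SLE-BDL. That call, CD3D, was lost with no low-count filter and with replicate or identifier number as a block. The hepatocyte marker APOB in SLE-BDL was lost in the same fits and with only the compared groups. The cholangiocyte marker KRT19 in MLE-BDL was lost with no low-count filter and with the identifier number as a block. With only the compared groups the erythroid marker HBB was lost in SLE-BDL. Of 6 erythroid markers 1 was lower in SLE-BDL and 5 in MLE-BDL, with mean sums of 1334, 632 and 269 CPM in ENT-BDL, SLE-BDL and MLE-BDL, and their part was not tested.

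The same lists were counted in BDL pigs against ENT-BDL, with no test of a list as a whole. In SLE-BDL 8 rose and 5 fell of 20 genes of gluconeogenesis and shared glycolysis, in MLE-BDL 5 and 3, with PGAM1 at 0.80 ± 0.13 in SLE. Glucose use gave 6 rises and 7 falls of 18 in SLE and 5 and 5 in MLE, and aromatic breakdown 5 and 6 falls of 14 with no rise, KMO among them (−0.68 ± 0.11 and −0.89 ± 0.12). Serine, glycine, threonine and sulfur breakdown gave 4 rises and 1 fall of 19 in SLE, with CDO1, the cysteine dioxygenase, at 1.46 ± 0.32, and 3 and 2 in MLE. GLUD1, glutamate dehydrogenase, was the 1 of 13 genes of the alanine, glutamine, histidine, proline and lysine list that fell in SLE (−0.60 ± 0.16) and in MLE (−0.58 ± 0.17), with no rise. The hormone list gave 4 rises and 4 falls of 22 in SLE and 1 and 5 in MLE. Carriers gave 6 rises and 1 fall of 11 and 4 and 1, uptake 2 and 1 rises of 12, and pericentral genes 4 falls of 8 in both. In SLE-BDL both uptake calls, SLC16A10 and SLC7A2, were lost with only the compared groups in the fit, as was the pericentral call of LGR5. In MLE-BDL the calls of MAT1A and TDH, from the serine list, were lost with the identifier number as a block.

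The lipid emulsions themselves were compared between MLE and SLE pigs. Among sham pigs SLC25A47 fell in MLE and no other of 9 tested members passed, where 0.629% of genes were lower and 0.37% higher. That SLC25A47 call is a description, since its sham values entered the fold changes that chose it. After BDL edgeR called 0 of 8 members, with 2 at an unadjusted p under 0.05 and 1 by DESeq2, where 0.216% of genes were higher and 0.691% lower. The DESeq2 call was TDO2 at −0.42 (adjusted p 0.0474), which in edgeR was −0.42 ± 0.13 with none of 8 pigs below all SLE-BDL pigs (adjusted p 0.0952) and −0.48 without SLE-BDL replicate 9 (0.0412). Over the 9 pathway lists, 137 other genes, 4 passed among sham pigs and 3 after BDL, against 33 and 25 at an unadjusted p under 0.05 and 8 and 5 by DESeq2. The CTH call among sham pigs was lost with the identifier number as a block and that of PFKL with no low-count filter and with replicate number as a block. After BDL all 3, PDK4, CDO1 and FKBP5, were lost with the identifier number as a block and with only the compared groups in the fit, and PDK4 and FKBP5 also with replicate number as a block. HK2 was lower in MLE-sham than in SLE-sham by −2.54 ± 0.55 and PFKFB3, which makes a signal for glycolysis, by −1.62 ± 0.35. PDK4 was lower in MLE-BDL by −0.97 ± 0.24, 6 of 8 pigs below all SLE-BDL pigs (adjusted p 0.0284), a call lost without any 1 of SLE-BDL replicates 7 and 9 or MLE-BDL replicates 1, 3, 4, 5, 7 and 8 (−0.97 to −0.66, 0.0516 to 0.0972) and with blocks for replicate (0.0738) or identifier number (0.0736) or only those groups in the fit (0.197). Of the 8 cholangiocyte markers 1, SPP1, was lower in MLE-sham, with mean sums of 225 CPM against 323 in SLE-sham. After BDL 1 of 8 hepatocyte markers, FGB, was lower in MLE, lost with the identifier number as a block and with only the compared groups in the fit. Erythroid markers then had mean sums of 269 CPM in MLE-BDL and 632 in SLE-BDL, and of the 6 edgeR called 0, with 6 at an unadjusted p under 0.05 and 3 by DESeq2. The part of cell content in these differences was not tested.

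Whether BDL acted differently under different diets was tested by the interaction, the difference between 2 diets' BDL responses. For SLE against ENT edgeR called 0 of 8 members, with 2 at an unadjusted p under 0.05 and 0 by DESeq2, where 2.33% of all genes passed. For MLE against ENT it called 0 of 9, with 2 unadjusted and 0 by DESeq2, where 0.0617% passed. For MLE against SLE it called 0 of 8, with 3 unadjusted and 0 by DESeq2, where 0.265% passed. So a fall of a member in 1 diet that missed the threshold in another is not shown to be particular to that diet. Of 137 other pathway genes 6, 0 and 1 passed in the 3 tests, against 41, 23 and 30 at an unadjusted p under 0.05 and 10, 1 and 3 by DESeq2. For SLE against ENT these include the lactate dehydrogenase LDHA (1.17), CDO1 (2.18) and AGXT (−0.81). SLC37A4 and PDK2 passed there too. The SLC37A4 call was lost with no low-count filter, with replicate or identifier number as a block and with the compared groups only. The PDK2 call was lost with replicate number as a block. G6PC alone passed for MLE against SLE, at −1.72 ± 0.42 (adjusted p 0.0462): after BDL it fell in MLE by 1.43 ± 0.32, 4 of 8 pigs below all sham pigs (adjusted p 0.000987), and in SLE differed by 0.30 ± 0.28 (adjusted p 0.620). The G6PC interaction was lost with no low-count filter (adjusted p 0.0727) and with replicate number (0.159) or identifier number (0.0978) as a block. It was lost too with only those 4 groups in the fit (0.0924) and in 25 of 38 fits that left out 1 pig. For MLE against SLE 1 of 8 hepatocyte markers passed, with 5 at an unadjusted p under 0.05 and 2 by DESeq2. For SLE against ENT 1 hepatocyte and 1 of 8 cholangiocyte markers passed. For MLE against ENT 0 hepatocyte markers passed, with 4 unadjusted and 0 by DESeq2. The part of cell content in these differences was not tested.

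Among the other genes always described, BDL raised IGFBP1 in SLE by 1.71 ± 0.45, 7 of 11 pigs above all sham pigs (adjusted p 0.0171). That call was lost without SLE-BDL replicate 5 (1.47, adjusted p 0.0502) or 9 (1.31, 0.0781), 2 of the 3 pigs with the most SDS, where IGFBP1 stood at 269 and 368 CPM against a group median of 57.2, while the other of these pigs, replicate 7, had 48.6. It was lost too with replicate number (1.38, 0.0618) or identifier number (1.297, 0.167) as a block and with only the SLE groups in the fit (1.71, 0.0933). PCK2 fell after BDL in MLE by 0.52 ± 0.15, 4 of 8 pigs below all sham pigs (adjusted p 0.00969). In SLE PCK2 differed by −0.41 ± 0.13, 6 of 11 below (adjusted p 0.0538), and passed with DESeq2 (−0.41, 0.0347) and without any 1 of SLE-sham replicates 1 and 4 or SLE-BDL replicates 8, 10 and 11 (−0.47 to −0.44, 0.0265 to 0.0458). PDK4 after BDL in MLE differed by −0.56 ± 0.25, 4 of 8 below (adjusted p 0.123), and by −0.72 without MLE-BDL replicate 2 (0.0453).

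These values come from whole liver at a single age, so they give RNA levels and neither enzyme activity nor glucose made. Libraries were taken as separate pigs, which is not established for the nearly matching ENT pair or for the SLE-sham pair with a shared identifier. How litters or surgery days fell over the groups is not stated in the labels. The MLE pigs carry only some of the identifier numbers found in the other diets. ENT comparisons include the 2 nearly matching libraries, whose origin is unsettled. Several calls in MLE pigs sit close to the threshold and change with single pigs. The SDS level in SLE-BDL rests on 3 pigs and has no test.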

How the data were processed

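The deposited table holds gene counts, which the authors made per the labels with HISAT2 2.0.5, StringTie 1.3.3 and featureCounts 1.5.0-p3 on Sscrofa11.1. Of 30359 features, 24 without a gene name, 0.00842% to 0.0407% of a library's counts, were left out, leaving 30335. In R 4.3.3, edgeR 4.0.16 on limma 3.58.1 (TMM, filterByExpr, robust quasi-likelihood F tests, two-sided) fitted the 6 groups of 60 pigs in 1 model, with p-values adjusted by Benjamini-Hochberg over 16210 genes. SEs are the fold change over the root of F. The log2 CPM used a prior count of 2. Depth, 14469788 to 21374161 counts, put mean counts of 151 on SDS and at least 617 on the other members. Positions are from the deposited annotation columns.

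All members are named, G6PC, PCK2, IGFBP1, PDK4 and HAL always, and in other lists genes among the 3 with the lowest adjusted p per comparison. The 5 genes most like SDS, PCK1 and SLC25A47 had the highest Spearman rho after group centring. Members and lists were chosen with earlier results of these data known. Neighbouring groups differ beyond spread where the gap of mean log2 CPM exceeds the larger SD. Alternatives were DESeq2 1.42.0, RLE size factors, no low-count filter, at least 10 counts in every pig, blocks for replicate or identifier number, the compared groups only, both matching ENT libraries left out, and each pig left out in turn.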

Additional observations from a re-analysis of the deposited data

Results flagged for a closer look

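In each group of up to 10 pigs the gap in log2 CPM between the most extreme pig and its nearest neighbour was divided by the group's range of log2 CPM for the 10 members and the 5 genes always described. SDS was left out in SLE-sham and SLC25A47 in BDL groups, because fold changes with those groups chose them. SDS values in the other groups and SLC25A47 values in sham groups also entered the fold changes that chose these members. Their gaps are descriptions only, though they are counted below. Of 57 such tests, 37 of them on members, 5 passed the critical value, and chance passes about 1 in 20. SDS in MLE-sham replicate 2 was 14.5 CPM where the other 8 pigs had 1.54 to 4.88, a gap of 0.4931 of the range. This SDS gap has no test, since the MLE-sham values entered a comparison with SLE-sham that chose SDS. TAT in ENT-BDL replicate 1, one of the 2 nearly matching libraries, was 402 CPM where the others had 571 to 776 (0.534). GLS2 in SLE-sham replicate 1 was 102 CPM where the others had 141 to 200 (0.481). In SLE-sham replicate 3 IGFBP1 was 5.24 CPM where the others had 24.2 to 47.1 (0.695), and PDK4 was 79.1 CPM where the others had 103 to 133 (0.507).

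Of 40 tested differences between the diets' BDL responses in these genes, 1 passed: G6PC for MLE against SLE, with an adjusted p of 0.0462. It was lost in 25 of 38 fits that left out 1 pig of the 4 groups, over which the difference ran from −1.83 to −1.48 and adjusted p from 0.0208 to 0.0948. It was lost as well with no filter on low counts (−1.74, adjusted p 0.0727), with replicate number (−1.47, 0.159) or identifier number (−1.67, 0.0978) as a block, and with only those 4 groups in the fit (−1.72, 0.0924).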

How the results depend on the processing

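Of 27 member fold changes that passed the test, all 27 kept their direction and side of the threshold with RLE size factors, with at least 10 counts in every pig and with DESeq2, 26 without both matching ENT libraries, 24 with the identifier block, 24 with the compared groups only, 23 with no low-count filter and 22 with the replicate block. The 27 include the SLC25A47 calls among sham pigs, which are descriptions. HPD in MLE-sham minus ENT-sham went from 0.24 to −0.0734 with the identifier block, neither passing, and the cause was not tested.

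The count of members past the test moved as follows, with the cause not tested. After BDL in SLE it went from 1 to 2 (TDO2 beside FBP1) with the replicate block, without both matching ENT libraries and with DESeq2. After BDL in MLE it went from 6 to 3 with no low-count filter. In SLE-sham against ENT-sham it went from 5 to 3 with the replicate block. In MLE-sham against SLE-sham it went from 1 to 0 with the identifier block and with the compared groups only (edgeR, 3 at an unadjusted p under 0.05 in the full fit, 1 by DESeq2). In MLE-BDL against SLE-BDL it went from 0 to 1 with DESeq2.

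The counts of these and other comparisons moved in further fits. After BDL in ENT the count went from 3 to 2 with no low-count filter (HPD lost) and to 4 with the compared groups only (SDS gained). After BDL in MLE it went from 6 to 4 with the replicate block (TAT, HPD and PCK1 lost, a PPARGC1A rise gained), to 5 with the identifier block (PCK1 lost) and to 5 with the compared groups only (HPD and PCK1 lost, PPARGC1A gained). In SLE-sham against ENT-sham it went from 5 to 4 without both matching libraries (PPARGC1A lost). In SLE-BDL against ENT-BDL it went from 3 to 4 with the identifier block (FBP1 gained). In MLE-BDL against ENT-BDL it went from 3 to 4 with the compared groups only (PPARGC1A gained), and with the identifier block PPARGC1A took the place of GLS2.

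Leaving out 1 pig at a time gave counts of 2 to 3 after BDL in ENT, 1 to 2 in SLE and 3 to 6 in MLE. Among sham pigs they were 4 to 5 for SLE and 5 to 6 for MLE against ENT and 0 to 1 for MLE against SLE. After BDL they were 3 to 4 for SLE against ENT, 3 in every fit for MLE against ENT and 0 to 1 for MLE against SLE. The interactions gave 0 to 1 for SLE against ENT and 0 in every fit for the other 2. In MLE the count was 3 without MLE-sham replicates 2, 3, 4, 5 or 9 or MLE-BDL replicates 1, 3, 4, 5 or 6.

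For list genes, cell type markers included, only calls among the 3 lowest adjusted p per list and comparison were followed. The genes always described were left out of these. Of 233 such fold changes, 233 kept their call with RLE and with DESeq2, 232 without both matching libraries, 219 with the replicate block, 216 with no filter and 205 with the identifier block. These are the strongest calls, and weaker list calls were not followed gene by gene. With the compared groups only 206 of 232 kept it, and with the strict filter 227 of 227. Of 5 genes most like SDS, PCK1 and SLC25A47, 1, 2 and 1 were shared without group centring, and 4, 3 and 4 without both matching libraries.

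Of 397 tested fold changes, 43 smaller than their own SE that passed under no setting were kept out of these comparisons and of the text, a rule set after values were seen, and 27 of these changed sign under some setting. Of the other 354 only a part is printed. Depth limits SDS most, with a mean of 151 counts.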
